A study of Mus musculus with 5 samples.

Results

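Neogenin, the netrins and the repulsive guidance molecules (RGMs) form a ligand and receptor system at the cell surface, and 10 of its genes are described here: the receptors Neo1 (neogenin), Dcc, Unc5a, Unc5b, Unc5c and Unc5d, the ligands Ntn1 and Ntn4, and the ligands and co-receptors Rgma and Rgmb. The set was chosen because Neo1 was higher in every library labelled β-catenin null, and the other 9 genes were added by family. Of the 10, 9 are among the 17923 mouse genes listed in at least 1 library, and Unc5d is listed in none. RNA sequencing was done on 5 libraries of cell lines grown from mouse thyroid tumors that all carry BRAFV600E, the activating BRAF mutation found in many papillary thyroid cancers.

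Both libraries labelled BVE-Ctnnb1wt come from the line BVE at passage 20, library 1 without and library 2 with thyroid-stimulating hormone (TSH), so neither repeats the other exactly. The libraries labelled BVE-Ctnnb1null are in addition labelled as having a deletion of Ctnnb1, the gene of β-catenin. Library 1 is BVECTN_4 at passage 8 without TSH, library 2 is BVECTN_4A at passage 11 and library 3 is BVECTN_5 at passage 7. TSH is not stated in the sample labels of null libraries 2 and 3. The protocol text names 4 mU/mL TSH in the medium and about 25 wt and 20 null passages, which differs from the sample labels. One line stands for the wt group, so the deletion, the line and the passage cannot be told apart, and p-values measure only the spread among these 5 libraries. Total estimated counts were 30432737 and 30713079 in the wt-labelled libraries and 29929677, 29360002 and 29415980 in the null-labelled ones. At these depths 3 counts correspond to 0.0977 to 0.102 CPM (counts scaled to library size). Limits and intervals of this kind cover counting error only.

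Neogenin and DCC are related receptors that span the membrane and bind netrins, and neogenin is in addition the receptor of the RGMs. The UNC5 proteins are netrin receptors that often turn attraction into repulsion, and several of these receptors are called dependence receptors because they can promote cell death when no ligand is bound. The RGMs also act as co-receptors for bone morphogenetic proteins (BMPs), which links the system to SMAD signalling. The system is best known for guiding axons, and in epithelia it takes part in adhesion, migration and survival.

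Ctnnb1, the gene labelled as deleted, did not follow the labels at the level of the whole transcript. Its level was 59.29 and 73.75 FPKM (fragments scaled to transcript length in kilobases and to library size) in the wt-labelled libraries and 124.58, 196.26 and 117.82 FPKM in the null-labelled ones. All null-labelled values lay above both wt-labelled values in FPKM, while the groups overlapped in CPM after TMM scaling. Where the deletion lies in the transcript is not given in the sources used here, and a deletion of some exons need not lower this value. For this reason the libraries are called by their labels throughout.

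The labelled cell type was checked with markers. Of 12 thyroid follicular markers, 5 had enough counts to be tested, and Tshr, Foxe1, Duox2, Dio1 and Slc26a4 were at most 0.12 FPKM in any library. The thyroid transcription factor gene Nkx2-1 was at 9.21 and 15.02 FPKM in the wt-labelled libraries and at 9.26, 34.83 and 0.26 FPKM in the null-labelled ones. Pax8 was at 0.40 and 0.17 FPKM against 18.15, 12.78 and 2.56 FPKM. Tg, which encodes the hormone precursor thyroglobulin, was at 0.80 and 0.86 FPKM against 0.04, 0.51 and 0.34 FPKM. These genes did not go one way, since Pax8 was higher and Tg lower in every null-labelled library, and Nkx2-1 overlapped. Hhex was at 3.71 and 4.14 FPKM against 1.08, 20.24 and 1.38 FPKM, and Slc5a5, the iodide transporter, at 1.03 and 0.36 FPKM against 6.48, 0.05 and 0.14 FPKM. Defining thyroid markers were therefore low or absent in part of the libraries.

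Neo1 (NCBI gene 18007) was in the lower range of the listed genes in the wt-labelled libraries and above the middle in the null-labelled ones. Its level was 0.46 FPKM in wt library 1, 0.23 FPKM in wt library 2, 7.63 FPKM in null library 1, 9.63 FPKM in null library 2 and 10.99 FPKM in null library 3. No value of the null-labelled group came near the wt-labelled group, and the lowest of them was 16.6 times the highest wt-labelled one. The group means were 0.345 ± 0.163 FPKM (SD, n = 2) and 9.42 ± 1.69 FPKM (SD, n = 3), a ratio of 27.3. The values rest on 104 and 53 estimated counts in the wt-labelled libraries and on 1696, 2103 and 2414 in the null-labelled ones. The 95% Poisson intervals of the small wt counts were 85.0 to 126 and 39.7 to 69.3, so wt library 2, the one with TSH, was below wt library 1 by more than counting error, at 0.5 times its FPKM. In the fit across all genes (edgeR's quasi-likelihood test on estimated counts), the log2 fold change was 4.21 (SE 0.56). It is given as a description without a p-value, because Neo1 was picked for this difference.

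In wt libraries 1 and 2 only 27.4% and 21.3% of the genes listed in the library had a lower FPKM than Neo1. In the null-labelled libraries the shares were 61.2%, 62.2% and 66.6%. Among the null-labelled libraries Neo1 had a ratio of 1.44 between the highest and the lowest FPKM, and the same ratio was 1.67 for Rgma, 2.1 for Ntn4, 2.48 for Rgmb, 11.5 for Unc5b and 18.8 for Ntn1.

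**Figure D1:**
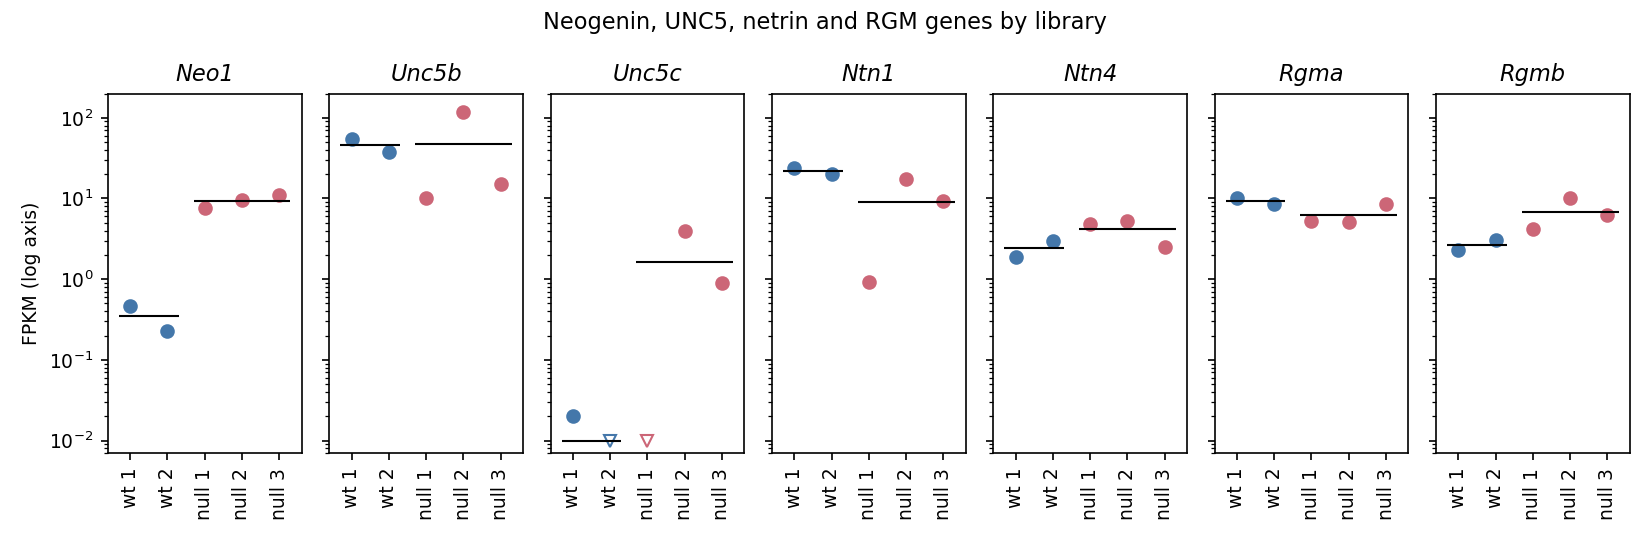
FPKM on a log axis for the 7 genes of the set with more than 5 counts in at least 1 library, with 1 point for each library (wt-labelled in blue, null-labelled in red), black lines at the group means, and open triangles for a gene not listed in that library, drawn at 0.01. Neo1 lies at 0.23 and 0.46 FPKM in the wt-labelled libraries and between 7.63 and 10.99 FPKM in the null-labelled ones, while the null-labelled values of Unc5b, Unc5c and Ntn1 are spread widely.

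Neo1 is listed as 2 RefSeq transcripts, which differ in 81 bases of coding sequence and are shown because only reads over these bases can assign a read to one form or the other. The long form, NM_008684, has 29 exons and 4476 coding bases, and the short form, NM_001042752, has 28 exons and 4395 coding bases. In GENCODE M21 on GRCm38 the gene lies on the minus strand of chromosome 9. The first difference is the start of exon 17 of the long form, 48 bases at chr9:58907047-58907094, and the second is the whole of exon 21, 33 bases at chr9:58902083-58902115. Both are multiples of 3 bases long and so keep the reading frame. The sequences below are in transcript direction with 15 shared bases on each side, and capitals mark the bases that the short form lacks.
Neo1 exon 17 start, long form: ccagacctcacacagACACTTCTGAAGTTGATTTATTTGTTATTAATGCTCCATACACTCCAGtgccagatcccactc
Neo1 exon 17 start, short form: ccagacctcacacagtgccagatcccactc
Neo1 exon 21, long form: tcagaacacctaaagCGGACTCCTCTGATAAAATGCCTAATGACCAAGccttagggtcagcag
Neo1 exon 21, short form: tcagaacacctaaagccttagggtcagcag

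The short form carried most of the Neo1 signal in every library. It was at 0.46 and 0.23 FPKM in the wt-labelled libraries and at 7.14, 9.23 and 7.67 FPKM in the null-labelled ones. The long form was listed in neither of the wt-labelled libraries and was at 0.49, 0.40 and 3.32 FPKM in null libraries 1, 2 and 3. Its share of the Neo1 FPKM was therefore 6.4% in null library 1, 4.2% in null library 2 and 30.2% in null library 3, and null library 3 stood apart. The short form of null library 3 lay between those of null libraries 1 and 2. The wt-labelled values rest on gene totals of only 104 and 53 estimated counts. The split is the authors' estimate and carries no error of its own in the files.

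**Figure D2:**
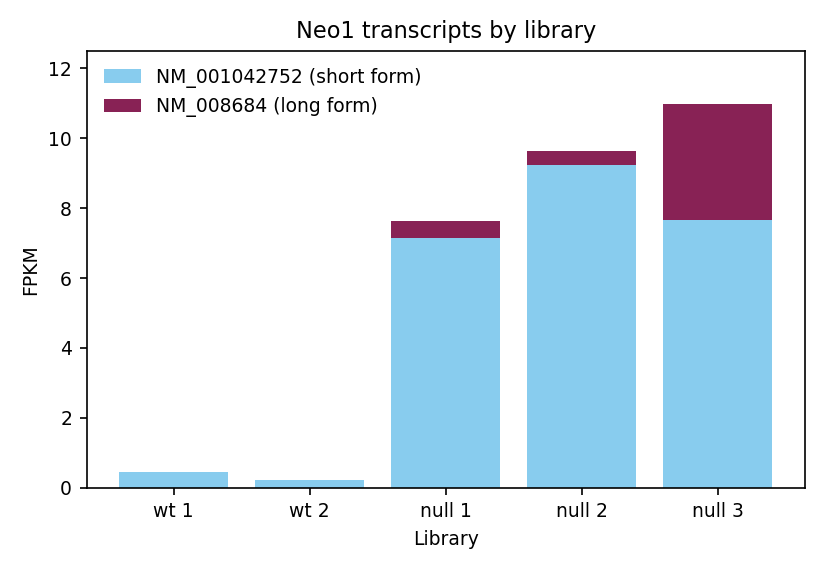
Stacked bars of the FPKM of the short and the long Neo1 transcript in each library, on a linear axis from 0. The long form is listed in neither of the wt-labelled libraries and makes up 30.2% of the bar in null library 3, against 6.4% and 4.2% in null libraries 1 and 2.

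The RefSeq promoter of Neo1 (GRCm38.p6, minus strand, chr9:59036392-59036691, from 250 bases before to 50 bases after the start) held neither of the letter strings CTTTGA and CTTTGT on either strand, which differ in the last letter and are core letters bound by the TCF/LEF factors that work with β-catenin. Of 32851 mouse promoters of 300 bases, 31.2% hold at least 1 of them. Promoters of 1 chromosome were left out before this count. The Neo1 window had 82.7% G and C, against a median of 52.7%, and 54 CpG pairs, against a median of 7. Of the promoters kept, 0.347% hold 54 or more. The promoters kept matched 6 of the 10 genes (Neo1, Ntn4, Unc5a, Unc5b, Unc5c and Rgmb) with 8 promoters. A gene on the chromosome left out could not be matched. Among the 8, 1 of the Rgmb promoters held 1 CTTTGT. These are counts of letters in short windows and say nothing about binding.

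Unc5b, a netrin receptor known from blood vessels and as a dependence receptor, was the most abundant gene of the set per length in every library. It was at 55.03 and 37.84 FPKM in the wt-labelled libraries and at 10.22, 117.13 and 15.14 FPKM in the null-labelled ones. Null library 2 was the highest of all 5 libraries and null libraries 1 and 3 the lowest, so the groups overlapped. The means were 46.4 ± 12.2 FPKM (SD, n = 2) and 47.5 ± 60.4 FPKM (SD, n = 3). The log2 ratio of these means was 0.03, while the log2 fold change after TMM scaling was −0.58 (SE 1.00, edgeR adjusted p = 0.775, adjusted by Benjamini-Hochberg over all 13242 genes tested), so the direction depended on the scale. Without null library 2 it was −2.51 (adjusted p = 0.142, edgeR), so that library decided the value.

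Unc5c, another UNC5 receptor, was at 0.02 FPKM in wt library 1, not listed in wt library 2 and null library 1, and at 3.98 and 0.90 FPKM in null libraries 2 and 3. The counts were 5 and 0 in the wt-labelled libraries against 0, 1106 and 251. Its reads were thus nearly all in null libraries 2 and 3, and null library 1 was like the wt-labelled libraries. The adjusted p was 0.271 (edgeR), and no fold change is given, since that value depends on how counts of 0 are treated.

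The other receptors were at or near the counting limit. Unc5a had 3 and 2 counts in the wt-labelled libraries and 2, 0 and 0 in the null-labelled ones (adjusted p = 0.527, edgeR). Dcc, the closest relative of Neo1, had 3 counts in null library 3 and none elsewhere (adjusted p = 0.609, edgeR). None of Dcc, Unc5a and Unc5d exceeded 3 counts in any library, which does not show that the genes were silent. Neo1 and Unc5b were the receptor genes of this set with more than 3 counts in every library.

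Ntn1 encodes netrin-1, the secreted ligand of DCC, neogenin and the UNC5 receptors. It was at 23.87 and 19.92 FPKM in the wt-labelled libraries and at 0.92, 17.30 and 9.21 FPKM in the null-labelled ones. All null-labelled values lay below both wt-labelled values, null library 2 narrowly and null library 1 by the most. The means were 21.9 ± 2.79 FPKM (SD, n = 2) and 9.14 ± 8.19 FPKM (SD, n = 3), and the log2 fold change was −1.89 (SE 0.96, adjusted p = 0.332, edgeR). It was −2.80 without null library 2 and −1.38 without null library 1, and neither passed the threshold of 0.05.

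Ntn4, a netrin of basement membranes that also binds laminins, was at 1.86 and 2.99 FPKM in the wt-labelled libraries and at 4.83, 5.21 and 2.48 FPKM in the null-labelled ones. Null library 3 lay between the wt-labelled libraries, so the groups overlapped. The means were 2.43 ± 0.799 FPKM (SD, n = 2) and 4.17 ± 1.48 FPKM (SD, n = 3). The log2 fold change was 0.19 (SE 0.66, adjusted p = 0.897, edgeR), and its sign turned when wt library 1, null library 1 or null library 2 was left out.

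Rgma, a membrane-anchored ligand of neogenin, was at 10.08 and 8.56 FPKM in the wt-labelled libraries and at 5.31, 5.06 and 8.43 FPKM in the null-labelled ones. All null-labelled values were below both wt-labelled values, with null library 3 only just below wt library 2. The means were 9.32 ± 1.07 FPKM (SD, n = 2) and 6.27 ± 1.88 FPKM (SD, n = 3), and the log2 fold change was −1.16 (SE 0.46, adjusted p = 0.254, edgeR). The alternatives ranged from −1.60 to −0.53 with adjusted p from 0.0797 (DESeq2) to 0.841 (edgeR without wt library 2).

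Rgmb, the second RGM, was at 2.30 and 3.05 FPKM in the wt-labelled libraries and at 4.14, 10.28 and 6.21 FPKM in the null-labelled ones. In FPKM all null-labelled values were above both wt-labelled values. In TMM-scaled CPM the groups overlapped, since null library 1 was at 10.1 CPM and wt library 2 at 11.1 CPM. The means were 2.67 ± 0.53 FPKM (SD, n = 2) and 6.88 ± 3.12 FPKM (SD, n = 3). The log2 fold change was 0.74 (SE 0.59, adjusted p = 0.518, edgeR). It was 0.39 without wt library 1 and 0.28 without null library 2.

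Of the 9 listed genes none passed the adjusted threshold of 0.05 in edgeR, where the background was 0% of the 13242 genes tested in either direction. At an unadjusted p below 0.05 Rgma was lower and none of the 8 genes other than Neo1 was higher, against a background of 6.09% of genes lower and 12.4% higher. DESeq2 called 8.48% of 13130 genes higher and 3.71% lower, and none of the 8 genes other than Neo1. Neo1 is left out of these counts because it was chosen on this contrast. Every null-labelled library was above both wt-labelled libraries, in FPKM and in TMM-scaled CPM, for 22.5% of genes, and below for 7.22%. Of the other 8 genes none was above in this way, and Ntn1 and Rgma were below.

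The order of the genes per length, from their FPKM, was the same in both wt-labelled libraries and differed among the null-labelled ones. In the wt-labelled libraries it was Unc5b, Ntn1, Rgma, Rgmb, Ntn4 and Neo1, from high to low. Neo1 came directly after Unc5b in null libraries 1 and 3, and after Unc5b, Ntn1 and Rgmb in null library 2. Ntn1 was the lowest of these 6 genes in null library 1, and Rgma the lowest in null library 2. Several neighbours in these orders were within the spread of their group, among them Rgmb and Ntn4 in the wt-labelled group, at 2.67 ± 0.53 and 2.43 ± 0.799 FPKM.

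Ratios between the receptors and to the ligand Ntn1 differed between the groups as well. Unc5b was at 120 and 165 times the FPKM of Neo1 in the wt-labelled libraries and at 1.34, 12.2 and 1.38 times in the null-labelled ones. Ntn1 was at 51.9 and 86.6 times the FPKM of Neo1 in the wt-labelled libraries, and at 0.121, 1.80 and 0.838 times in the null-labelled ones. Both ratios were lower in every null-labelled library than in either wt-labelled one, and both contain Neo1, which was chosen for its level. The ratio of Rgma to Rgmb does not contain it, and was 4.38 and 2.81 in the wt-labelled libraries and 1.28, 0.492 and 1.36 in the null-labelled ones. Rgmb exceeded Rgma in null library 2 alone. Neo1 made up 0.491% and 0.317% of the summed FPKM of the set in the wt-labelled libraries, and 23.1%, 5.71% and 20.6% in the null-labelled ones.

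The wt-labelled libraries differ from each other in TSH, and with 1 library for each state there is no replicate check. The library with TSH had 0.5 times the FPKM of the library without for Neo1, 0.688 times for Unc5b, 0.835 times for Ntn1 and 0.849 times for Rgma. It had 1.61 times the FPKM for Ntn4 and 1.33 times for Rgmb.

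Fold changes followed transcript length across all genes, and Neo1 is a long transcript of 7388 bases. The median log2 fold change of all 13242 genes tested was 0.29. It was −0.55 over the 948 genes under 1000 bases, 0.09 over genes of 2000 to 3000 bases, 1.25 over the 871 genes of 6000 to 8000 bases and 1.78 over the 530 genes of 8000 bases or more. The share of genes with every null-labelled library above both wt-labelled ones was larger for longer genes, at 4.75%, 14.8%, 50.4% and 64.3% in these classes. All null-labelled libraries showed it: the genes of 6000 to 8000 bases had median log2 deviations from the wt mean of 1.01, 1.29 and 0.86 in null libraries 1, 2 and 3. The part of RNA quality or library preparation in this trend was not tested.

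Of the 871 genes of 6000 to 8000 bases, 46 (5.28%) had a log2 fold change at least as large as Neo1, and of all genes 4.36% did. These shares only describe its place, since it was chosen on this contrast. With the length trend taken out as an offset in the edgeR fit, an alternative added after the trend was seen, the log2 fold change of Neo1 was 3.08 (SE 0.52). Unc5b and Ntn1, of 5867 and 5757 bases, moved away from 0 instead, to −1.59 (adjusted p = 0.498, edgeR) and −2.85 (adjusted p = 0.349, edgeR). Rgma was at −1.60 (adjusted p = 0.327, edgeR) and Rgmb at 0.66 (adjusted p = 0.665, edgeR). With the offset, too, no gene passed the adjusted threshold.

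**Figure D3:**
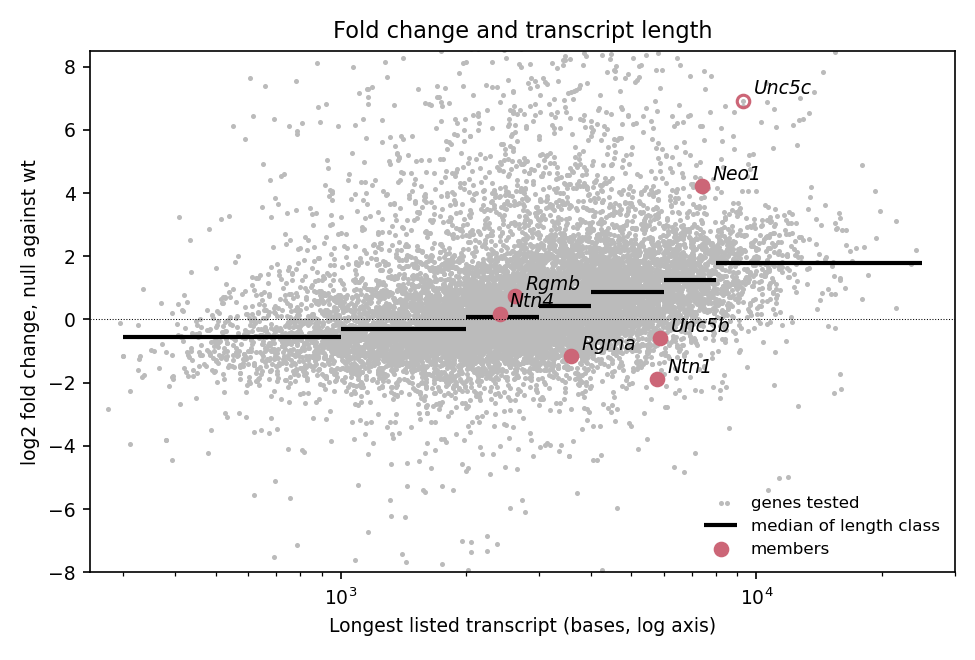
Log2 fold change of null-labelled against wt-labelled libraries (edgeR) on the length of the longest listed transcript, in bases on a log axis, with 1 grey point for each gene tested, black lines at the median of each length class, and the genes of the set in red (Unc5c open, because its value depends on the treatment of counts of 0; 113 genes lie outside the vertical range). The class medians climb from −0.55 to 1.78, Neo1 lies above the median of its class, and Ntn1, Unc5b and Rgma lie below theirs.

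The rest of the pathway was read from 6 lists with 88 genes, of which 85 were listed and 75 tested. None passed the adjusted threshold in edgeR. At an unadjusted p below 0.05, 22 were higher and 1 was lower, beside 12.4% and 6.09% of all genes. DESeq2 called 13 higher and 0 lower, beside 8.48% and 3.71% of all genes. In every null-labelled library 31 (41.3%) were above and 2 (2.67%) below both wt-labelled libraries, beside 22.5% and 7.22% of all genes. Their fold changes were above 0 for 65 of 75 genes with a median of 1.00, beside 59.3% of all genes with a median of 0.29. With the length offset 54 of 75 were above 0 with a median of 0.64, beside 52.9% of all genes and a median of 0.07. The lists are of longer genes than usual, with a median transcript of 3636 bases against 2833.

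Among the other ligands, few were expressed. Of 10 genes (Ntn3, Ntn5, the netrin-G genes, Hjv, Draxin, Cbln4 and the FLRT genes) 4 were tested, all with a fold change above 0, with a median of 1.40, or 1.03 without Flrt1, which had almost no wt-labelled counts. With the length offset 3 of the 4 were above 0, with a median of 0.66, or 0.22 without Flrt1. Flrt3, which encodes an adhesion protein that binds UNC5 receptors, was at 0.23 and 0.22 FPKM in the wt-labelled libraries and at 1.57, 1.27 and 0.50 FPKM in the null-labelled ones. It was higher in each null-labelled library, as was required for naming it, and was the only 1 of the 4 (25.0%), beside 22.5% of all genes. Its log2 fold change was 1.77 (SE 0.88, adjusted p = 0.321, edgeR). The offset brought it to 1.10.

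Of 10 other netrin receptors 7 were tested, all with a fold change above 0, with a median of 1.7, or 1.59 without Lrrc4, which had no wt-labelled counts. Mcam, an adhesion receptor of the immunoglobulin family, was at 1.91 and 1.40 FPKM in the wt-labelled libraries and at 23.50, 13.93 and 7.03 FPKM in the null-labelled ones, with a log2 fold change of 2.62 (SE 0.71, adjusted p = 0.191, edgeR; adjusted p = 0.00764, DESeq2). Itgb1, the β1 integrin subunit, was at 61.78 and 41.28 FPKM against 88.83, 234.12 and 285.92 FPKM, with a log2 fold change of 1.38 (SE 0.56, adjusted p = 0.262, edgeR). With the length offset Mcam was at 2.42 and Itgb1 at 0.78.

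The 27 signalling partners act below the receptors on kinases, small GTPases and actin, and 25 were tested. Of these, 22 had a fold change above 0 and 15 (60.0%) were above in every null-labelled library, beside 22.5% of all genes and 37.7% of genes of 4000 to 6000 bases. The median was 1.41, which the length offset lowered to 0.55, and the median transcript of the list had 4276 bases. Ablim1, an actin-binding protein, was at 0.19 and 0.14 FPKM in the wt-labelled libraries and at 18.97, 1.22 and 4.78 FPKM in the null-labelled ones. Wasl, the N-WASP protein that starts actin branching, was at 1.15 and 0.87 FPKM against 10.52, 8.0 and 11.15 FPKM. Wasl was even across the null-labelled libraries and Ablim1 was not. Their log2 fold changes were 5.13 (SE 1.36, adjusted p = 0.191, edgeR) and 2.81 (SE 0.53, adjusted p = 0.180, edgeR), and DESeq2 called both (adjusted p = 0.000232 and 9.37e-06). Rasa1, a RAS GTPase-activating protein, was at 0.68 and 0.28 FPKM against 2.61, 10.71 and 2.34 FPKM (adjusted p = 0.207 in edgeR and 0.020 in DESeq2). Myo10, a filopodial motor that binds DCC and neogenin, was at 1.14 and 1.05 FPKM against 3.09, 3.44 and 13.01 FPKM, and its log2 fold change of 1.97 was 0.76 with the offset.

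All 6 partners of receptor-driven cell death were tested, and all had a fold change above 0, with a median of 0.87 (0.41 with the offset, where 2 were below 0). Dapk1, the death-associated kinase that binds UNC5B, was at 0.46 and 0.57 FPKM in the wt-labelled libraries and at 13.18, 6.32 and 4.63 FPKM in the null-labelled ones. It stood apart from the list, with a log2 fold change of 3.43 (SE 0.74, adjusted p = 0.181, edgeR; adjusted p = 0.0002, DESeq2) that was 2.52 with the offset. Appl1, an adaptor of DCC, and Ppp2r1b, a phosphatase 2A subunit, had log2 fold changes of 1.41 and 0.95, which were 0.30 and 0.51 with the offset.

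Of 13 genes for shedding, cleavage and turnover of the receptors, 9 (69.2%) had a fold change above 0 and 4 below, beside 59.3% of all genes above 0, with a median of 0.57, or 0.52 without Tmprss6. With the offset 7 (53.8%) were above 0 and 6 below, beside 52.9% of all genes above 0. The offset median was 0.37, or 0.18 without Tmprss6. Adam10, a sheddase, was at 3.21 and 3.18 FPKM in the wt-labelled libraries and at 12.41, 19.24 and 14.34 FPKM in the null-labelled ones. Furin, a convertase that cleaves RGM precursors, was at 5.02 and 4.70 FPKM against 44.36, 22.18 and 8.12 FPKM. Psen2, a subunit of γ-secretase, was at 1.05 and 0.67 FPKM against 5.20, 3.40 and 2.26 FPKM. These were named because they did not overlap between the groups, and each was higher in every null-labelled library. Of the 13 genes, 3 (23.1%) were higher in this way and 1 (7.69%) lower. These shares were near those of all genes, at 22.5% and 7.22%. The log2 fold changes were 1.67 for Adam10 (adjusted p = 0.191, edgeR; adjusted p = 0.00961, DESeq2), 1.82 for Furin (adjusted p = 0.277, edgeR) and 1.53 for Psen2 (adjusted p = 0.319, edgeR), and the offset brought them to 0.97, 1.22 and 1.67.

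Of 22 genes of the BMP pathway 20 were tested, 17 with a fold change above 0, with a median of 0.94 (0.68 with the offset). Id2, a BMP target that blocks basic helix-loop-helix factors, was at 0.97 and 1.21 FPKM in the wt-labelled libraries and at 53.07, 9.85 and 10.56 FPKM in the null-labelled ones, with a log2 fold change of 3.95 (SE 1.07, adjusted p = 0.191, edgeR; adjusted p = 0.00197, DESeq2). Bmpr2, the type II BMP receptor, was at 0.21 and 0.25 FPKM against 1.33, 2.69 and 1.33 FPKM (adjusted p = 0.191 in edgeR and 0.00566 in DESeq2). Bmpr1a, a type I receptor, was at 1.40 and 1.01 FPKM against 2.40, 9.82 and 6.32 FPKM, and Smad5, a signal carrier of BMPs, at 2.08 and 1.07 FPKM against 3.69, 13.94 and 8.07 FPKM. Each of these was higher in every null-labelled library, but genes with overlap were not eligible for naming. Of the 20 tested genes, 6 (30.0%) were higher in this way and 1 (5.0%) lower, beside 22.5% and 7.22% of all genes. Id1 and Id3 overlapped between the groups, with log2 fold changes of 0.76 and 0.41 (adjusted p = 0.545 and 0.76, edgeR). The offset took Bmpr2 from 2.36 to 0.77, Smad5 from 1.85 to 0.72 and Bmpr1a from 1.75 to 0.87, and left Id2 at 4.27.

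**Figure D4:**
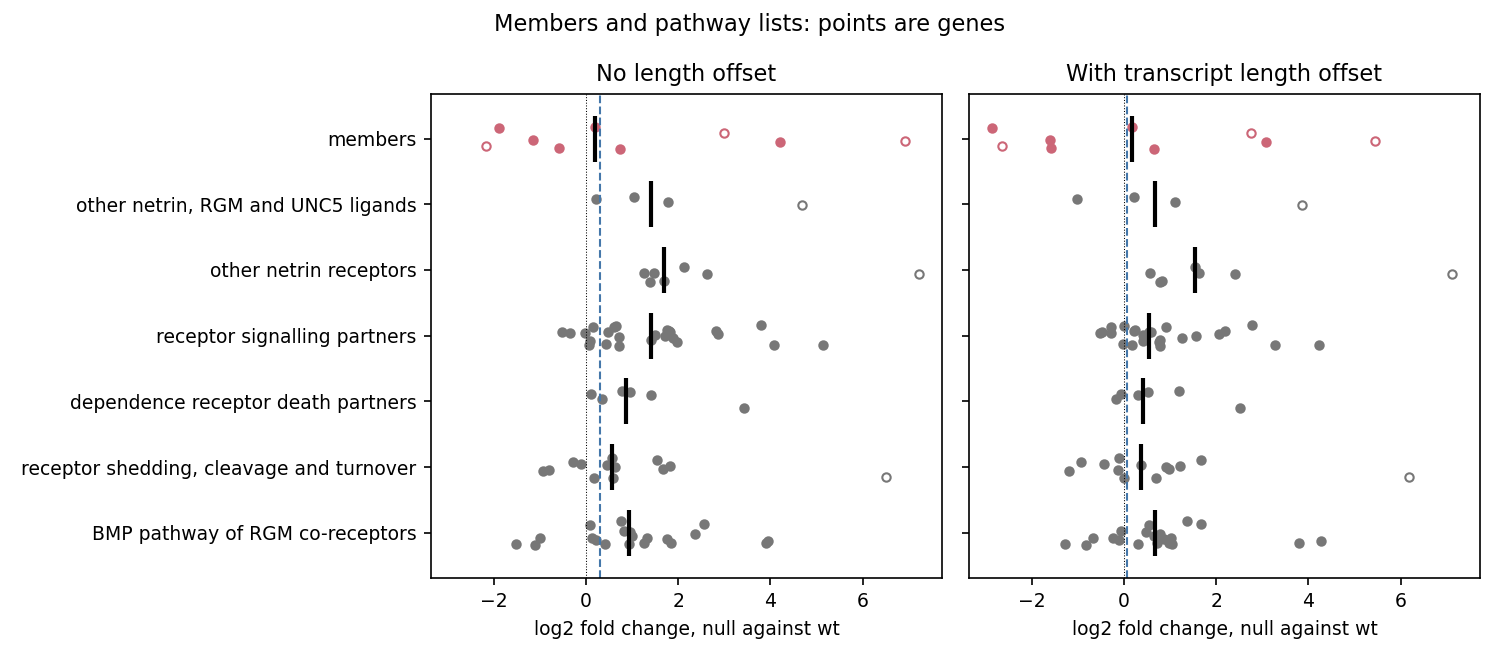
Log2 fold change of null-labelled against wt-labelled libraries (edgeR) for each tested gene of the set and of the 6 pathway lists, left as fitted and right with the transcript length offset, with black bars at list medians, a dashed line at the median of all genes and open symbols for 6 genes with at most 5 counts in every library of a group. Most genes of the pathway lists lie above 0, and most list medians move toward the dashed line with the offset, from 1.41 to 0.55 for the signalling partners.

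The 5 genes whose profile over the 5 libraries was most like that of Neo1, by root mean square distance of centred log2(FPKM + 0.1), came from 8089 genes with at least 1 FPKM in every library. They were Ptp4a1 (distance 0.58), a phosphatase, Thbs1 (0.64), the secreted matrix protein thrombospondin-1, Tnks2 (0.65), the poly-ADP-ribosyltransferase tankyrase-2, Rcn2 (0.68), a calcium-binding protein, and Plscr2 (0.69), a scramblase family member. Neo1 itself was below 1 FPKM in both wt-labelled libraries, so genes as low as Neo1 there were not among those compared. Ptp4a1 was at 2.83 and 1.01 FPKM in the wt-labelled libraries and at 15.25, 19.04 and 20.38 FPKM in the null-labelled ones. Thbs1 was at 2.82 and 5.13 FPKM against 39.12, 109.24 and 109.55 FPKM.

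The 3 protein-coding genes on each side of Neo1 on chromosome 9 did not share its pattern as a block. Nptn was at 24.96 and 26.56 FPKM in the wt-labelled libraries and at 63.35, 64.63 and 82.47 FPKM in the null-labelled ones (log2 fold change 0.85, SE 0.41, adjusted p = 0.307, edgeR). Arih1 was at 2.84 and 2.32 FPKM against 7.51, 15.41 and 12.96 FPKM (log2 fold change 1.62, SE 0.48, adjusted p = 0.195, edgeR; adjusted p = 0.028, DESeq2), and its log2 fold change was 0.58 with the offset. Both were higher in every null-labelled library, by less than Neo1. Adpgk and Bbs4 had log2 fold changes of −0.53 and −1.03 (adjusted p = 0.647 and 0.487, edgeR), and Rec114 and Hcn4 had at most 6 counts in any library.

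Markers of other cell types varied between the lines, and in these bulk libraries fewer cells of a type and less RNA per cell cannot be told apart. Fibroblast markers summed to 290 and 255 FPKM in the wt-labelled libraries and to 1.7, 148 and 1410 FPKM in the null-labelled ones, with Col1a1 the most abundant and 10 of 10 listed in at least 1 library. Pericyte and smooth muscle markers summed to 84.9 and 73.7 FPKM against 7.65, 194 and 952 FPKM, led by Acta2 except in null library 1, where Acta2 was not listed and Notch3 led. Within the null-labelled group both sums and Neo1 were lowest in null library 1 and highest in null library 3. Their part in the Neo1 values was not tested.

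Epithelial markers summed to 1110 and 1790 FPKM in the wt-labelled libraries and to 14100, 706 and 1460 FPKM in the null-labelled ones. The most abundant of them was Krt8 in the wt-labelled libraries, Krt7 in null libraries 1 and 3 and Krt18 in null library 2, and Epcam and Cdh1 were not listed in null library 2. In FPKM that library also had the highest Unc5b, Unc5c, Ntn1, Ntn4 and Rgmb of the null-labelled group. In TMM-scaled CPM Ntn4 was slightly higher in null library 1, at 10.8 CPM against 10.3 CPM in null library 2. The part of epithelial content in these levels was not tested. Neuron and Schwann cell markers, of interest because netrin receptors are neuronal genes, summed to between 0.13 and 0.58 FPKM in all libraries. Endothelial markers summed to between 0.08 and 0.80 FPKM, with Kdr at 0.62 FPKM in null library 3 the most abundant. Leukocyte markers summed to 6.86 and 14.9 FPKM against 60.1, 1.06 and 40.3 FPKM, led by Cd68, with Ptprc, Adgre1 and Cd3e not listed. C cell markers summed to 1.07 and 1.16 FPKM against 5.01, 1.66 and 1.65 FPKM, led by Calca in wt library 1 and by Calcb in the other libraries.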

How the data were processed

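RNA from 5 cell line libraries (TruSeq, HiSeq 4000) was sequenced. Expected counts, which need not be whole, and FPKM, scaled to length and depth, were deposited for every RefSeq transcript and library. Transcripts under 0.01 FPKM were not listed and were counted as 0. The aligner, counting program, annotation and genome build are not given in the sources used here. Here both were added up by gene, and counts were then rounded. Of 17923 genes, 17866 matched a symbol in RefSeq (GRCm38.p6).

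Groups came from the labels. Groups were compared in edgeR 4.0.16 (R 4.3.3, with TMM, filterByExpr with the 9 listed genes kept, glmQLFTest) over 13242 genes with Benjamini-Hochberg adjustment. The alternatives were DESeq2 1.42.0, no filter, a minimum of 10 counts per library, limma 3.58.1 on log2(FPKM + 0.1, 0.01 or 1) for genes with at least 0.5 FPKM in 2 libraries, each library left out, a replicate block, and a transcript length offset added after the data were seen.

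Members and lists were chosen with earlier results of these data known. Named genes are the set, up to 4 genes per pathway list with the largest fold change among those of at least 1 FPKM in a group and without overlap, the 3 neighbours on each side of Neo1, the 5 genes most like it, Ctnnb1 and defining markers. A few others were named after their values were seen. Some genes that met these rules are not reported here. Sequences come from GENCODE M21 and RefSeq.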

Additional observations from a re-analysis of the deposited data

How the results depend on the processing

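In edgeR no gene passed the adjusted threshold in either direction, also with each library left out (0 higher and 0 lower each time), with the replicate block (0 and 0) and with the length offset (0 and 0). At an unadjusted p below 0.05, 1645 genes were higher and 806 lower. DESeq2 called 1114 higher and 487 lower. No filter gave 4 lower, at least 10 counts gave 1 lower, and limma gave 1 higher with each pseudocount and 5, 3 and 7 lower with 0.1, 0.01 and 1. The log2 fold change of Neo1 was 4.79 and 2.95 with pseudocounts of 0.01 and 1, 3.08 with the length offset, 4.16 with the replicate block, and 3.79 to 4.59 with 1 library left out. That of Ntn4 ranged from −0.27 to 0.59 with 1 library left out and up to 0.75 in limma, and reversed to −0.27, −0.02 and −0.05 without wt library 1, null library 1 and null library 2. The cause was not tested. Libraries 1 and 2 of each group did not deviate together with their own number (r = −0.088 for each pair). The deviations of the 2 wt-labelled libraries from their mean are exact opposites, so these r values are not independent checks. Libraries 1 of both groups also share the label without TSH. The block changed no call. Over 11798 genes in all fits the median log2 fold change was 0.21 in edgeR, 0.13 in DESeq2 and 0.61 in limma with 0.1. The biological coefficient of variation was 0.694. Depth limits Dcc and Unc5a, with at most 3 counts in any library.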

Other observations

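Several genes of the lists differed more among the null-labelled lines than between the groups, and these were chosen after their values were seen. Bmp2 was at 5.73 and 1.85 FPKM in the wt-labelled libraries and at 0.20, 34.19 and 0.04 FPKM in the null-labelled ones, and Grem1, a secreted BMP antagonist, was at 24.44 and 13.47 FPKM against 0.43, 69.52 and 23.12 FPKM. Both were highest in null library 2, which also had the most Unc5b. Bmp7 was at 2.46 and 3.01 FPKM against 21.48, 0.51 and 0.32 FPKM, with its highest level in null library 1. Bmp6 was at 0.16 and 0.08 FPKM against 4.68, 0.01 and 3.08 FPKM, and Tmprss6, the protease that cleaves the RGM family member hemojuvelin, at 0.02 and 0.02 FPKM against 7.14, 0 and 0.96 FPKM. Both were low in null library 2 alone among the null-labelled libraries. Ntng1 was listed in null library 2 alone, at 0.30 FPKM, and Dscaml1 was at 0.86 FPKM in null library 1, at 0.01 FPKM in null library 3 and not listed elsewhere.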
